A study of Mus musculus with 4 samples.

Results

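Circulating-type cytotoxic effector T cells were searched for among the T cells that line the brain. They were chosen by their measured transcripts. A cell was a member when it had 200 to 7000 genes, at most 5% mitochondrial transcripts, a transcript of Cd3d, Cd3e or Cd3g, none of Foxp3, and transcripts of at least 2 of the 5 genes Cx3cr1, S1pr5, Zeb2, Gzma and Klrg1. The rule found 61 members among 4801 cells, of which 3899 were Foxp3-negative T cells. The members are called effector cells here. They came from 4 single-cell libraries of sorted CD4 and CD8 T cells of female C57BL/6 mice. There were 16 effector cells in the library of young meninges, 7 in young choroid plexus, 24 in aged meninges and 14 in aged choroid plexus, and lists of 4 values keep this order. Young mice were 10 weeks and aged mice 18 months old, the labels name no treatment or transgene, and each library was pooled from 5 mice. With 1 library per tissue and age, aged and young cells of a tissue were compared as single libraries and without a test, and a test of age had to take the tissues as replicates.

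Transcripts were counted as unique molecular identifiers (UMIs) from the 5′ ends of mRNA. The libraries held 1111, 718, 1695 and 1277 cells and the effector cells summed to 58480, 15053, 67646 and 36498 UMIs. The median effector cell had 3216.5, 2139, 2421 and 2328.5 UMIs, and the median of the other Foxp3-negative T cells was 3203, 3010, 2290 and 2830. The effector cells of the young choroid plexus were thus the fewest and the shallowest. Between 3 and 7 cell barcodes of each library also occurred in another library, and 0 of these belonged to effector cells. Values in parentheses after a share are exact 95% limits (Clopper-Pearson), which take in counting error alone.

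T cells that have met antigen can stay in a tissue or pass through it with the blood. Cells of the second kind are known for the fractalkine receptor Cx3cr1 and for the sphingosine-1-phosphate receptor S1pr5, which lets lymphocytes follow a lipid gradient out of tissues. Zeb2 is a transcription factor that acts with T-bet in terminal effector differentiation, Gzma encodes the granule protease granzyme A, and Klrg1 encodes a lectin-like inhibitory receptor of late effector cells. Klf2 is a transcription factor that keeps T cells in circulation by sustaining sphingosine-1-phosphate receptors. Resident T cells by contrast are known for Itgae, Itga1, Cxcr6 and low Klf2.

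The rule genes lie on chromosome 9 (Cx3cr1, chr9:119901616-120069879, and S1pr5, chr9:21242912-21248443), chromosome 2 (Zeb2, chr2:44983632-45117395), chromosome 13 (Gzma, chr13:113093825-113100981) and chromosome 6 (Klrg1, chr6:122270596-122282882) in the GENCODE vM21 annotation of GRCm38. The 250 bases before a RefSeq start are shown for the 2 receptors of circulating cells among the genes that choose the cells, with a motif chosen after the level of Klf2 was seen, since KLF proteins bind CACCC boxes. Sequences are from RefSeq (GRCm38.p6), 5′ to 3′ on the minus strand, with each CACCC or its reverse complement GGGTG in capitals.
Cx3cr1, chr9:120068297-120068546: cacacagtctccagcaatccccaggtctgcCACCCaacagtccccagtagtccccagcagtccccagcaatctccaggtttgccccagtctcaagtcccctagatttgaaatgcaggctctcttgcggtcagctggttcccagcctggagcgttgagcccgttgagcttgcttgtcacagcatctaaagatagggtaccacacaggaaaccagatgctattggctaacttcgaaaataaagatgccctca
S1pr5, chr9:21248444-21248693: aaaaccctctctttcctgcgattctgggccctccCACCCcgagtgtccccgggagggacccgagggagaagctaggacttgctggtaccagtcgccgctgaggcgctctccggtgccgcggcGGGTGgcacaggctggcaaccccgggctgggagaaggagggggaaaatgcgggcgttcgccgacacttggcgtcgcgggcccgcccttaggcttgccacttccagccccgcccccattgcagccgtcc
The RefSeq start used for Cx3cr1 lies inside the GENCODE span given above, which begins further upstream, while that of S1pr5 is the GENCODE start. Cx3cr1 had 1 match and S1pr5 had 2. Of 4 listed starts of Zeb2, 2 had 1 match each and 2 had none, and the start of Gzma had none. The same letters were found on either strand in 52.0% of 32851 mouse promoters of this length, and a match is a description of letters only. Klrg1 was not matched.

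The 5 genes chose the cells, so their levels are given as a description. Of the 61 effector cells, 43 had a Cx3cr1 UMI, 37 had S1pr5, 41 had Zeb2, 36 had Gzma and 29 had Klrg1. At least 1 of Cx3cr1 and S1pr5 was found in 52 cells. In young meninges Cx3cr1 was seen in 12 of 16 effector cells, in young choroid plexus in 6 of 7, in aged meninges in 17 of 24 and in aged choroid plexus in 8 of 14. S1pr5 was seen in 12, 4, 16 and 5 effector cells. It was close to absent elsewhere, with 8 cells among the 3838 other Foxp3-negative T cells. Gzma was the most uneven, with 738 UMIs in 36 effector cells and 121 of them in 1 cell of the young meninges.

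Members just inside the rule had 2 of the 5 genes (26 cells), and 15, 11 and 9 cells had 3, 4 and 5. All 5 genes were found in 5 cells of the young meninges, 1 of the young choroid plexus, 3 of the aged meninges and 0 of the aged choroid plexus. Cells with only 2 genes were 4 of 16 in the young meninges, 3 of 7 in the young choroid plexus, 12 of 24 in the aged meninges and 7 of 14 in the aged choroid plexus. The commonest pairs were Cx3cr1 with S1pr5 and Cx3cr1 with Zeb2, 28 cells each. Just outside the rule stood 225 T cells with 1 of the 5 genes.

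**Figure D1:**
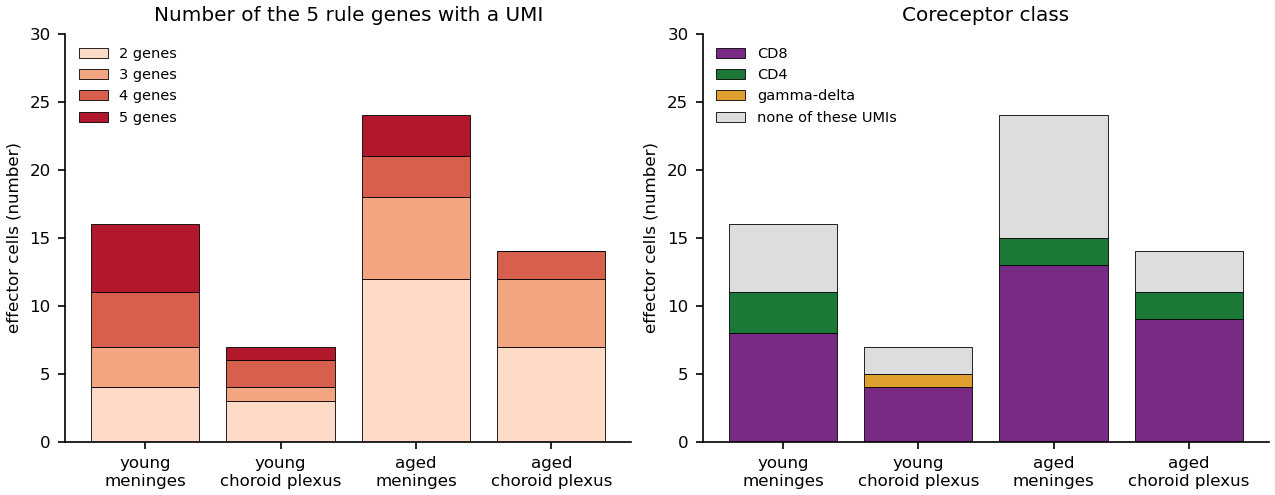
Number of effector cells in each library, split on the left by how many of the 5 rule genes had a UMI and on the right by coreceptor class. The libraries held 16, 7, 24 and 14 effector cells, and CD8 was the commonest class in each.

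The label of T cell was checked first. The rule itself asked for a Cd3 UMI, so the Cd3 genes are no check, and all 61 effector cells had at least 2 of their UMIs. The T-cell receptor genes were not part of the rule. Of the 61 cells, 45 had a UMI of Trac, Trbc1 or Trbc2 and 57 had a UMI of a T-cell receptor beta V gene. The V genes were of 17 kinds, and the commonest, Trbv3, was assigned to 7 cells. By coreceptor, 34 effector cells were CD8 (Cd8a or Cd8b1 present, Cd4 absent), 7 were CD4, 1 was gamma-delta and 19 had none of these UMIs. CD8 cells were 8 of 16, 4 of 7, 13 of 24 and 9 of 14 effector cells, in all 55.7% (42.4 to 68.5), against 29.3% (27.8 to 30.8) of all other Foxp3-negative T cells and 55.6% of the other Gzmk-positive T cells. The 7 CD4 effector cells were in the young meninges (3), the aged meninges (2) and the aged choroid plexus (2).

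Natural killer cells share many of these genes, and a marker list of 6 genes (Ncr1, Klrb1c, Tyrobp, Fcer1g, Klra8, Klra4) was counted. A UMI of the list was found in 8, 2, 4 and 2 effector cells by library, 16 of 61 in all, against 92 of 3838 other T cells. Its summed level in the effector cells was 513 CPM in young meninges, 133 CPM in young choroid plexus, 103 CPM in aged meninges and 54.8 CPM in aged choroid plexus. Klrb1c was its most abundant gene, with 16 UMIs in 12 effector cells, except in the young meninges, where 12 Fcer1g UMIs came from 1 cell. Ncr1, a defining receptor of natural killer cells, was found in 2 effector cells, and Tyrobp or Fcer1g in 2 cells of the young meninges. Of 15 effector cells with a UMI of Ncr1, Klrb1c or Klra8, 13 also had a UMI of a T-cell receptor constant gene. All 10 macrophage genes, 5 fibroblast genes and 4 genes of the choroid plexus epithelium had 0 UMIs in effector cells. Of 5 B cell genes only Ighm was seen (5 UMIs in 4 cells). Haemoglobin genes gave 132 UMIs in 9 cells, all of the aged meninges, and 103 of these were Hbb-bs UMIs in 1 cell.

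The abundance of effector cells was then compared across tissues and ages. They made up 1.62% (0.927 to 2.61) of Foxp3-negative T cells in young meninges, 1.14% (0.459 to 2.33) in young choroid plexus, 1.89% (1.22 to 2.81) in aged meninges and 1.36% (0.747 to 2.28) in aged choroid plexus. The intervals of all 4 libraries overlapped. The aged share minus the young share was 0.278 percentage points (-0.925 to 1.42) in the meninges and 0.225 percentage points (-1.12 to 1.36) in the choroid plexus. No difference was detectable with these numbers of cells. When every cell was thinned to 1000 UMIs before the rule was applied, the shares were 0.942, 0.870, 0.970 and 0.692%. Without cells with macrophage, B or NK cell marker UMIs they were 0.978% (0.448 to 1.85), 0.850%, 1.63% (0.996 to 2.50) and 1.20%.

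Other T cells with a Gzmk UMI, a population known to build up with age, made up 5.05% of Foxp3-negative T cells in young and 31.0% (28.5 to 33.6) in aged meninges, which is 6.14-fold more. In the choroid plexus the shares were 5.69% and 33.2%, or 5.83-fold more. After thinning to 1000 UMIs these folds were 8.60 and 9.10. A cell counted as positive with 1 Gzmk UMI, and no background of free transcripts in the droplets was taken off. Effector cells made up 24.2% (14.5 to 36.4) of effector and Gzmk-positive cells together in young meninges and 5.76% (3.72 to 8.44) in aged meninges. In the choroid plexus it was 16.7% (6.97 to 31.4) and 3.94% (2.17 to 6.53). T cells with only 1 of the 5 rule genes also had larger shares in the aged libraries, 7.42% against 2.83% in the meninges and 8.37% against 2.76% in the choroid plexus.

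**Figure D2:**
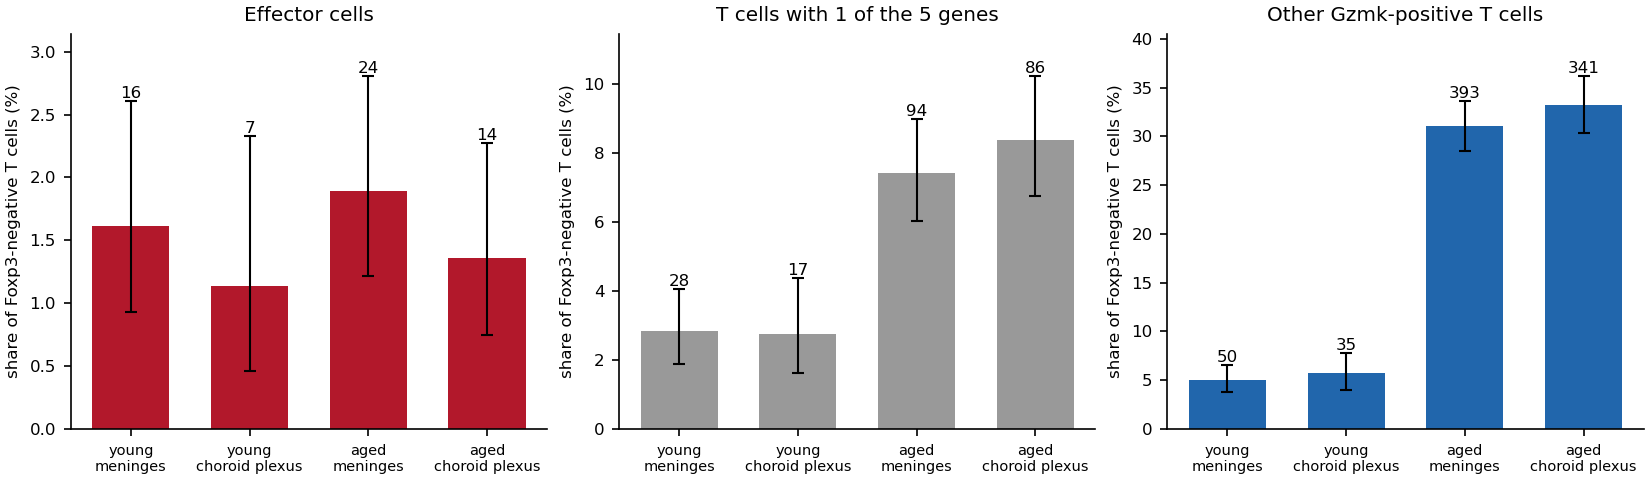
Share of Foxp3-negative T cells (vertical axis, percent) held by effector cells, by T cells with 1 of the 5 rule genes and by other Gzmk-positive T cells in each library, with 95% exact intervals as bars and cell numbers above. Effector cells lay between 1.14 and 1.89% in all libraries, while Gzmk-positive cells lay near 5% in young and above 30% in aged libraries.

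The next question was what else marks effector cells. Their UMIs were summed within each library and set against 3 other populations of the same library: all other Foxp3-negative T cells (3838 cells), other Gzmk-positive T cells (819 cells) and T cells with a UMI of the residency integrins Itgae or Itga1 (359 cells). The genes that chose either population of a comparison were left out of its test. The test was edgeR's quasi-likelihood test with the library as a block, and adjusted p-values are Benjamini-Hochberg values over all genes tested. The young choroid plexus was left out of the fit because it held fewer than 10 effector cells, and its values are printed beside the others for the genes described by library. In it 18 of the 163 genes called against Gzmk-positive cells, 6 of 69 called against Itgae- or Itga1-positive cells and 57 of 336 called against all other T cells had the other direction. The 3 comparisons share the same effector profiles, so they are not independent of each other. The libraries that act as replicates differ in tissue or age, and the sources do not say whether the meninges and choroid plexus of an age came from the same mice, so the 3 fitted libraries may not be 3 independent pools.

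Against other Gzmk-positive T cells, effector cells had more transcripts of Klf2, Tbx21, Gzmb, Ccl5 and 4 killer-cell receptors and fewer of Xcl1, Cxcr3, Cxcr6, Tcf7 and ribosomal protein genes. Of 2152 genes tested, 55 were higher (2.56%) and 108 were lower (5.02%). With scaling by library size alone the split was 99 and 79, and the median of all genes moved by 0.16 (log2). Without the young meninges 30 genes were higher and 76 lower of 6165 tested. Values below are from TMM scaling, where the median of all genes was -0.01.

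Klf2 stood out among abundant genes (chr8:72319033-72321656). Its level in effector cells was 2958 CPM in young meninges, 2325 CPM in young choroid plexus, 1582 CPM in aged meninges and 1123 CPM in aged choroid plexus. In other Gzmk-positive cells it was 175, 311, 279 and 104 CPM in the same order. Each effector value was higher than every value of the Gzmk-positive cells. The log2 fold change was 3.10 ± 0.25 (SE, n = 3 libraries, edgeR adjusted p = 8.5e-06). At 1000 UMIs per cell, 75.4% of effector cells had a Klf2 UMI, against 12.7% of Gzmk-positive cells and 32.5% of all other T cells.

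Of the 15 egress and circulation genes on the list, 10 were tested and 4 were higher. Beside Klf2 these were Ly6c2, an antigen of circulating and effector lymphocytes (1.32 ± 0.24), Itgb2, the beta chain of LFA-1 (0.90 ± 0.21), and Rasgrp2, an activator of the integrin switch Rap1 (1.98 ± 0.33), which in the young choroid plexus was at 66.4 CPM against 79.2 CPM. Itgb2 lost its call in 6 of 19 alternatives and Ly6c2 in 4 of 19. Reads of Ly6c2 and its near-identical neighbour Ly6c1 may have been split between them. S1pr1, the main receptor for leaving tissue, was not called, with 68.4, 66.4, 133 and 137 CPM in effector cells against 91.5, 73.6, 103 and 47.1 CPM in Gzmk-positive cells. The median log2 fold change of the list was 0.80, against -0.01 over all genes.

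Tbx21, which encodes T-bet, was at 359, 133, 296 and 82.2 CPM in effector cells and between 29.1 and 39.6 CPM in Gzmk-positive cells. The ranges did not overlap, but the choroid plexus values of effector cells were 2 UMIs in young and 3 UMIs in aged cells. The log2 fold change was 2.66 ± 0.38 (edgeR adjusted p = 4.9e-04). Of 8 effector transcription factors tested, Tbx21 and Bhlhe40, a repressor induced in activated lymphocytes (1.56 ± 0.30), were higher and none was lower. Eomes, the T-box factor paired with Gzmk in many T cells, was at 17.1, 0, 29.6 and 82.2 CPM in effector cells against 54.0, 73.6, 114 and 91.7 CPM and was not called (adjusted p = 0.14).

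Granule and receptor genes followed. Gzmb, the granzyme B gene, was at 547, 133, 532 and 658 CPM in effector cells against 49.9, 28.3, 128 and 114 CPM in Gzmk-positive cells. Every effector value was above every value of the other population, but that of the young choroid plexus was 2 UMIs. The log2 fold change was 2.36 ± 0.27 (edgeR adjusted p = 9.4e-05). Of 8 granule and killing genes tested, Gzmb, Fasl and Nkg7 were higher and none was lower. Fasl lost its call in 5 of 11 alternatives and Nkg7 in 5 of 19, and Fasl had 0 UMIs in the effector cells of the young choroid plexus. Prf1, the perforin gene, was not among the genes tested and was found in 5 of 16, 1 of 7, 5 of 24 and 1 of 14 effector cells. Of 7 killer-cell receptor genes tested, 4 were higher: Klre1, Klrd1, Klrk1 and Slamf7. Klrc1 (1.02), Cd226 (0.67) and Il2rb (-0.34) were not called. Klrd1, which encodes CD94, was at 376, 664, 547 and 877 CPM in effector cells against 79.0, 39.6, 116 and 154 CPM (2.19 ± 0.22).

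Among the other genes of the ranked list, Kcnj8, a subunit of an ATP-sensitive potassium channel, was at 137, 133, 207 and 274 CPM in effector cells and at 8.31, 17.0, 9.36 and 26.4 CPM in Gzmk-positive cells (3.67 ± 0.41). Gna15, a G-protein alpha subunit (2.43 ± 0.39), Gem, a small GTPase (2.33 ± 0.40), and Lgals3, which encodes galectin-3 (2.08 ± 0.31), were also higher. Of 15 S100, annexin and motility genes tested, Lgals1, Lgals3, Vim, Emp3 and Ahnak were higher and S100a6 was lower, the last with TMM scaling only. Vim lost its call in 6 of 19 alternatives and Ahnak in 5 of 19, and Vim of the young choroid plexus was at 664 CPM against 707 CPM. The chemokine Ccl5 was found in all 61 effector cells, at 31720, 60785, 31813 and 28522 CPM against 6281, 6525, 12154 and 9307 CPM (1.62 ± 0.14).

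**Figure D3:**
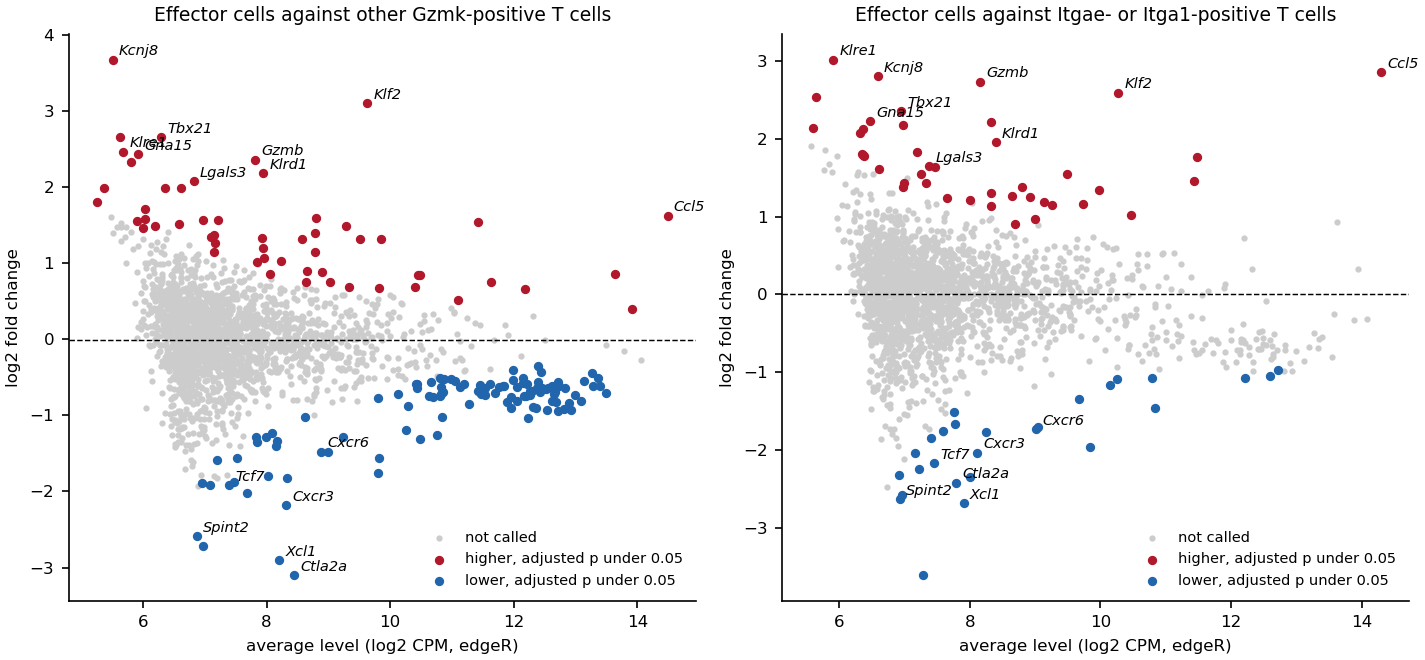
Log2 fold change of effector cells (vertical axis) against the average level (log2 CPM, horizontal axis) for each gene tested, against other Gzmk-positive T cells (left) and Itgae- or Itga1-positive T cells (right). Coloured points have an adjusted p under 0.05 and the dashed line is the median of all genes. Klf2 lies at 3.10 and 2.59, and the band of lower points at high levels on the left is mostly ribosomal protein genes.

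Xcl1, a chemokine that draws cross-presenting dendritic cells, was at 17.1, 0, 73.9 and 0 CPM in effector cells and between 204 and 329 CPM in Gzmk-positive cells (-2.90 ± 0.50). Cxcr3, the receptor for interferon-induced chemokines, was at 17.1, 0, 103 and 110 CPM against 403, 192, 285 and 228 CPM (-2.18 ± 0.42). Cxcr6, a receptor of resident T cells, changed by -1.48 ± 0.25. Of 3 chemokine receptors tested, Cxcr3 and Cxcr6 were lower. Of 6 residency genes tested, Xcl1 and Cxcr6 were lower and Bhlhe40 was higher. The list's other tested members, Rgs1 (-0.19 ± 0.28), Cd69 (-0.54 ± 0.66) and Nr4a1 (1.14 ± 0.40), were not called. Of 7 naive and stem genes tested, Tcf7, Il7r, Cd28 and Slamf6 were lower and none was higher. Cd28 lost its call in 7 of 18 alternatives, Tcf7 in 4 of 17, Il7r in 4 of 19 and Slamf6 in 3 of 12. Of 4 genes on the list of inhibitory receptors tested, Tox and Tigit were lower, and 1 was lower with either other scaling. Tox lost its call in 6 of 12 alternatives and Tigit in 9 of 17, and in the young choroid plexus Tox was at 266 CPM (4 UMIs) in effector cells against 34.0 CPM. Ctla2a, a protease inhibitor (-3.10 ± 0.41), and Ltb, a cytokine of lymphoid tissue (-1.76 ± 0.23), were lower as well.

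Most of the remaining lower genes encode ribosomal proteins. Of 79 ribosomal protein genes tested, 67 were lower and none was higher, which leaves 41 other genes among the 108. Their median log2 fold change was -0.65, and with scaling by library size alone it was -0.48 with 54 genes lower. Ribosomal protein genes held 18.8, 19.7, 23.1 and 22.3% of the UMIs of effector cells, and 29.5, 30.3, 31.3 and 32.7% of those of Gzmk-positive cells. The ranges did not overlap.

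Against T cells with Itgae or Itga1 UMIs, 42 of 2113 genes were higher (1.99%) and 27 were lower (1.28%). Scaling by library size alone gave 65 and 26 and moved the median by 0.17. Klf2 was higher by 2.59 ± 0.38, Gzmb by 2.74 ± 0.43, Tbx21 by 2.36 ± 0.44, Klre1 by 3.02 ± 0.50, Ccl5 by 2.86 ± 0.39 and Ccl4, a chemokine for monocytes and T cells, by 2.22 ± 0.32 (log2, SE, edgeR adjusted p from 0.00139 to 0.00616). Klf2 was at 991, 327, 203 and 57.3 CPM in the integrin-positive cells, so the lowest effector value of 1123 CPM was above all of them. Gzmb of the young choroid plexus was at 133 CPM against 148 CPM. Xcl1 (-2.68 ± 0.52), Cxcr3 (-2.03 ± 0.38) and Cxcr6 (-1.73 ± 0.29) were lower. Rgs10, a regulator of G-protein signalling, was also called lower, from 0, 0, 0 and 2 UMIs in effector cells against 173, 161, 102 and 163 CPM, and its fitted log2 fold change ran from -7.85 to -2.48 over the alternatives. Of 6 residency genes tested, Xcl1 and Cxcr6 were lower and Bhlhe40 was higher (1.43 ± 0.35, lost in 9 of 18 alternatives), while Rgs1 (0.02), Nr4a1 (0.36) and Cd69 (-1.04) were not called. By list, 4 of 7 killer-cell receptors, 3 of 10 egress and circulation genes and 2 of 9 granule genes were higher, and 3 of 8 naive and stem genes were lower. The calls of this comparison depended on the aged meninges. Without that library 1 gene was higher, the T-cell receptor V gene Trav14-3, and 0 were lower, with 134 higher and 184 lower at an unadjusted p under 0.05. The fold changes without it were 2.45 for Klf2, 2.97 for Gzmb and 3.01 for Ccl5 on the log2 scale, and the edgeR adjusted p of Ccl5 was 0.0552.

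Against all other T cells, 79 of 8417 genes were higher (0.939%) and 257 were lower (3.05%). The split depended on the scaling, with 169 higher and 98 lower by library size alone, where the median of all genes moved by 0.44 from -0.31. Fold changes against all other T cells are therefore given relative to that median. Without the young meninges 25 were higher and 104 lower, without the aged meninges 43 and 165, and without the aged choroid plexus 59 and 125. Ccr7, the receptor for entry to lymph nodes, had 0 UMIs in all 61 effector cells, where 3 UMIs over the 3 fitted libraries would be 18.4 CPM, against 230.0 CPM in the other T cells, so it was at least 12.5-fold lower. Most of its UMIs in other T cells came from the young meninges, and without that library the bound was 2.19-fold. Igfbp4, an insulin-like growth factor binding protein of naive T cells, was also at 0 and at least 12.5-fold lower, or 2.48-fold without the young meninges. Of 17 naive and stem genes tested, 13 were lower and none was higher, among them Satb1, a chromatin organiser (-4.38 ± 0.81), Tcf7 (-2.65 ± 0.43) and Il7r, the interleukin-7 receptor (-2.11 ± 0.29). The list's median was -2.65 relative to all genes and -2.96 as fitted. With genes at 0 UMIs set at their bound it was -2.09 as fitted, where the median of all genes was -0.24.

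The genes higher than in all other T cells included Kcnj8 (4.11 ± 0.49 relative to the median), Gzmb (3.73 ± 0.27), Klre1 (3.26 ± 0.53), Slamf7 (3.19 ± 0.38), Tbx21 (3.06 ± 0.36), Il18rap, a subunit of the interleukin-18 receptor (2.69 ± 0.47), and Klf2 (1.83 ± 0.22). Of 11 killer-cell receptors tested, 7 were higher and none was lower. Klrc1 lost its call in 9 of 18 alternatives and Klrb1c in 5 of 14. Klrb1c is also on the natural killer cell list, which summed to 231 CPM in effector cells and 24.4 CPM in other T cells. Without cells with macrophage, B or NK cell markers, 15 of 8518 genes tested were higher in a fit of 2 libraries. Pltp, a phospholipid transfer protein, ranked highest (5.09 ± 1.16) from few UMIs, with 51.3, 0, 29.6 and 54.8 CPM in effector cells. Cd244, a receptor of the SLAM family (4.24 ± 0.96), rested on 2, 1, 3 and 4 UMIs and lost its call in 5 of 12 alternatives. Gzmk was called lower (-1.03 ± 0.36), but it was higher in effector cells of the young meninges (120 against 41.2 CPM) and lost its call in 10 of 19 alternatives, scaling by library size alone among them. It was found in 12 effector cells, 10 of which were CD8. The level of Klf2 in all other T cells was 1052, 767, 409 and 183 CPM. Of 13 egress and circulation genes tested, Il18rap, Itgb2, Klf2 and Ly6c2 were higher and Ccr7 was lower. S1pr1 was not called but leaned lower (-1.03 ± 0.35 as fitted, edgeR adjusted p = 0.080), and was higher in 1 of the 4 libraries.

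**Figure D4:**
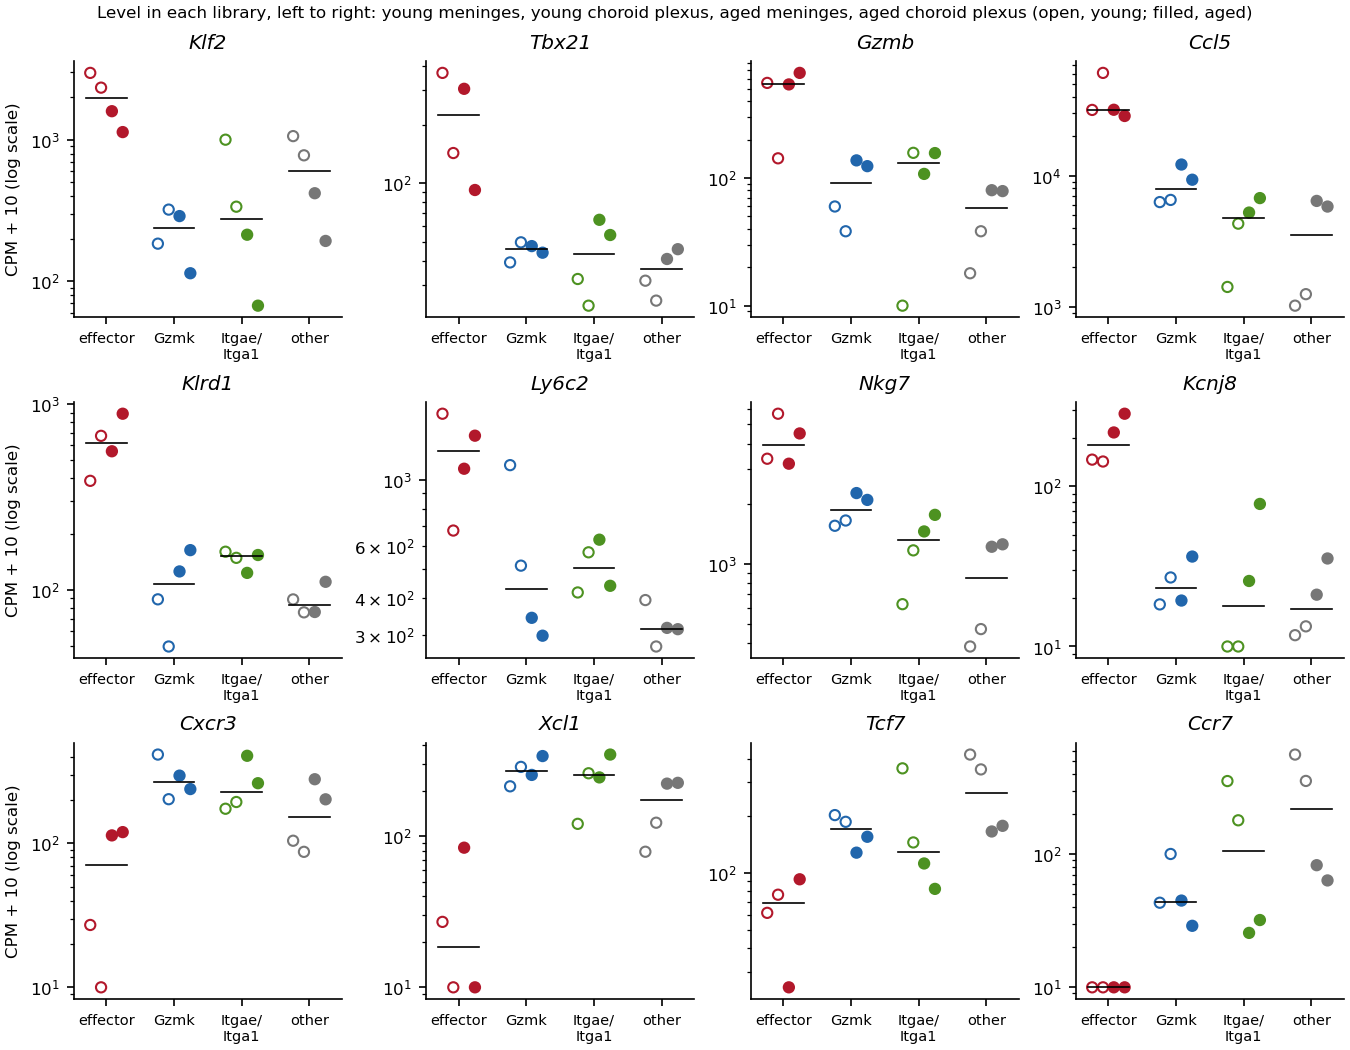
Level of 12 genes (CPM + 10, log scale) in effector cells, other Gzmk-positive T cells, Itgae- or Itga1-positive T cells and all other T cells. Each point is 1 library, ordered from left as meninges and choroid plexus of young mice, then the same of aged mice, and the line is the median of the 4. Klf2, Tbx21, Klrd1 and Kcnj8 of effector cells lie above all Gzmk-positive values, with 2 UMIs each for Tbx21 and Kcnj8 in young choroid plexus. Ccr7 of effector cells lies at 0 CPM in every library.

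The Gzmk comparison was repeated on subsets of cells. First, all cells with a UMI of Ncr1, Klrb1c, Klra8 or of defining macrophage or B cell genes were removed, which took away 15 effector cells. In a fit of the 2 libraries that kept 10 effector cells, 17 genes were higher and 38 lower of 6313 tested. With at least 3 of the 5 rule genes, also in 2 libraries, it was 61 and 115 of 2121. A minimum of 3 cells per profile, chosen after these counts were seen, brought in all 4 libraries. The counts were then 45 and 85 of 1568, and 75 and 137 of 1525. With CD8 T cells only on both sides and this minimum it was 41 and 77 of 1015. In each of these fits Klf2 was higher, and its log2 fold change over all alternatives lay between 2.43 and 3.56.

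Levels within effector cells are given for classes of cells summed over libraries. The classes have unequal shares of each library (CD4 cells 3, 0, 2 and 2), so these values were not tested. In summed UMIs, the 34 CD8 effector cells had 792 CPM of Gzmb, the 7 CD4 cells 116 CPM and the 20 cells with neither coreceptor 153 CPM. Klf2 was at 1576 CPM in CD8, 2663 CPM in CD4 and 2622 CPM in cells with neither. Klrd1 was at 566, 502 and 612 CPM. Nkg7, a granule membrane protein, was at 4057, 2547 and 3561 CPM. Gzmb was found in 22 of 34, 2 of 7 and 5 of 20 cells.

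The number of rule genes was compared in the same way. The 35 cells with 3 or more rule genes had 2466 CPM of Klf2, 333 CPM of Tbx21 and 29.4 CPM of Cxcr3, and the 26 cells with 2 rule genes had 1378, 159 and 119 CPM. The 225 T cells just outside, with 1 rule gene, had 319, 44.2 and 196 CPM. Xcl1 was at 0 in the cells with 3 or more genes, at 79.3 CPM in those with 2 and at 224 CPM in those with 1. The 9 effector cells without Cx3cr1 and S1pr5 had 580 CPM of Klf2 and 218 CPM of Xcl1, while the other 52 had 2265 CPM and 0. Because cells of these groups came from different libraries in different shares, these values are a description and were not tested.

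Within effector cells, aged and young libraries were compared by a rule of size: at least 20 UMIs in the higher library and at least a 2-fold difference after adding 10 CPM. In the meninges 525 genes had enough UMIs, and 20 were higher (3.81%) and 24 lower (4.57%) in the aged library, where 20 UMIs were 296 CPM in aged and 342 CPM in young cells. Natural killer cell genes (Ncr1, Klrb1c or Klra8) were found in 7 of 16 young and 4 of 24 aged cells there, and without these cells, which left 56866 aged and 27620 young UMIs, 38 of 392 genes were higher and 7 lower. In the choroid plexus it was 24 higher (9.3%) and 2 lower (0.775%) of 258 genes. There 20 UMIs were 548 CPM in aged but 1329 CPM in young cells, so a gene could pass as higher in aged cells at a lower level than as lower in them. With genes chosen by a mean of at least 500 CPM over both libraries instead, an alternative chosen after seeing the data, 13 were higher and 9 lower of 266 in the choroid plexus, and 5 and 2 of 264 in the meninges. The same choice without the natural killer, macrophage and B marker cells gave 9 and 5 of 257 in the meninges. The directions of these counts are therefore not read as results. Of 258 genes with enough UMIs in both tissues, Anxa2, S100a6, Shisa5 and Ms4a4b were past the rule as higher in both. With 2 genes lower in the choroid plexus the rule could hardly find genes lower in both, and it found 0.

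A test of age was added after the data were seen. The effector profiles of all 4 libraries were fitted with edgeR's quasi-likelihood test with tissue as a block, which leaves 1 residual degree of freedom. Of 708 genes tested, 9 were higher (1.27%) and 11 lower (1.55%) in aged cells. On simulated data this test called 8 of 565 unchanged genes, so some of these calls may be false. S100a6 was higher by 1.55 ± 0.22 (log2, SE, adjusted p = 4.87e-09), Ms4a4b, a membrane protein of T cells, by 1.06 ± 0.22 and Anxa2 by 1.51 ± 0.43, and Klf2 was lower (-0.97 ± 0.17, adjusted p = 4.59e-06). Gzmb (0.32 ± 0.30) and Ccl5 (-0.55 ± 0.38) were not called. Without the block 0 genes were called in either direction (smallest adjusted p 0.13), with 33 higher and 38 lower at an unadjusted p under 0.05. The meninges and choroid plexus of an age may come from the same mice, so these p-values do not measure the spread between mice. The block takes out the difference between tissues. What remains is how far the age difference varied between tissues, with 1 residual degree of freedom, and a spread estimated over many genes.

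S100a6, a small calcium-binding protein, was at 496 CPM (29 UMIs) in young and 1537 CPM (104 UMIs) in aged meninges, and at 864 and 2384 CPM in the choroid plexus. Anxa2, a membrane-binding annexin, had 188 and 399 CPM in the meninges and 66.4 and 712 CPM in the choroid plexus, where the young value was 1 UMI. Klf2 was lower in both aged libraries, 2958 against 1582 CPM in the meninges (log2 ratio -0.90, short of the rule) and 2325 against 1123 CPM in the choroid plexus (-1.04). Cells with only 2 rule genes, which had less Klf2, were 4 of 16 young and 12 of 24 aged cells in the meninges and 3 of 7 and 7 of 14 in the choroid plexus, and their part in the lower Klf2 was not tested. A lower Klf2 in aged libraries was not particular to effector cells. In Itgae- or Itga1-positive cells it was 991 against 203 CPM in the meninges and 327 against 57.3 CPM in the choroid plexus. All other T cells were also lower in both aged libraries. In Gzmk-positive cells Klf2 was 311 against 104 CPM in the choroid plexus, but 175 against 279 CPM in the meninges. Ccl5 of effector cells was even in the meninges, 31720 and 31813 CPM, and was 60785 and 28522 CPM in the choroid plexus.

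Other genes past the rule in the choroid plexus included Gzmb, with 133 CPM (2 UMIs) in young and 658 CPM (24 UMIs) in aged cells, Ndufa1, Rabac1 and Sec61g. In the meninges Gzmb was 547 and 532 CPM, a log2 ratio of -0.04. Of the meningeal genes, Taf10, a subunit of the general transcription factor TFIID, had 103 and 340 CPM, and Zyx, an adhesion-site protein, had 598 and 177 CPM. The non-coding Xist, a nuclear RNA, had 137 and 429 CPM, and AY036118, a transcript related to ribosomal RNA, had 445 and 1286 CPM and was also called higher in the test of age (1.19 ± 0.24). The part of RNA quality in the age differences was not tested. Some values rested on single cells. Hbb-bs had 0 UMIs in young and 106 in aged meninges, 103 of them in 1 cell, and H2afx, a histone gene, had 28 of 32 UMIs in 1 young cell. S100a6 had 32 of its 104 UMIs in 1 aged cell. The choroid plexus values rest on 7 young cells.

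**Figure D5:**
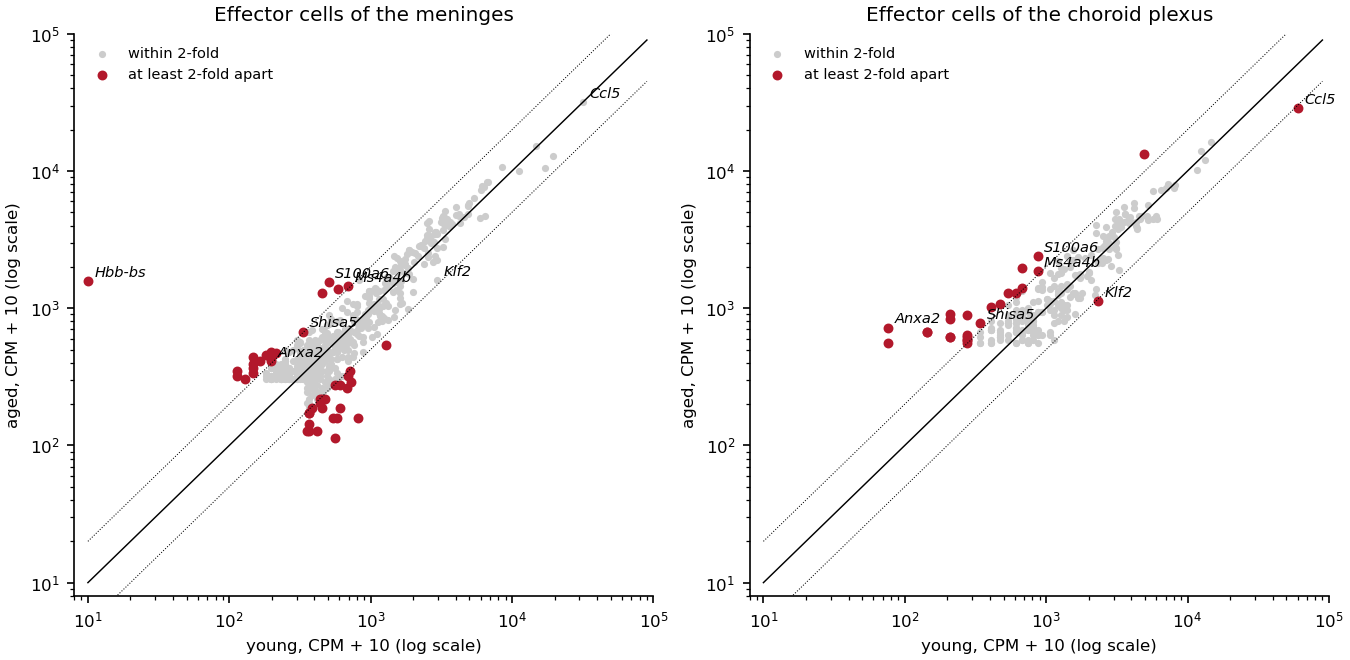
Level of each gene with at least 20 UMIs in aged (vertical axis) against young (horizontal axis) effector cells, as CPM + 10 on log scales, for the meninges and the choroid plexus. The solid line marks equal levels, the dotted lines a 2-fold difference, and red points lie beyond them. In the choroid plexus 24 genes lie above and 2 below, and in the meninges 20 and 24, but 20 UMIs are 548 CPM in aged and 1329 CPM in young choroid plexus cells, so the panels cannot show young-high genes at the lower levels.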

How the data were processed

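Cells were droplet-sequenced from the 5′ end after sorting, and the authors deposited raw UMI counts per gene and cell (31053 genes) made with Cell Ranger 3.1.0 per the file headers. The submitters' processing notes name Cell Ranger 5.1.0 and STAR, so the version is uncertain. Counts were used as deposited. T cells, members and comparison cells were set by the rules in the report. The members and the gene lists were chosen with earlier results of these data known. Cells were summed per library and population, and profiles with at least 10 cells were tested with edgeR 4.0.16 (quasi-likelihood, TMM, genes filtered by filterByExpr, library as a block), with DESeq2 1.42.0 as an alternative. The test of age had tissue as the block and no such minimum, so it took in the 7 effector cells of the young choroid plexus. CPM are UMIs relative to the summed total of the cells. Named genes were the rule and list genes and the genes with the largest fold changes in each direction among those called and of the same direction in all fitted libraries (15 and 10 against other T cells, 10 and 10 otherwise), and the 5 largest and 5 smallest age ratios per tissue. Some genes are not reported here. T-cell receptor V, immunoglobulin, mitochondrial and ribosomal protein genes were left out of the ranking. Scrublet in scanpy 1.11.5 marked none of the 61 members as doublets. It marked 16, 22, 0 and 5 cells by library, so it did not work in the aged meninges. The edgeR step was tested on simulated data: for the Gzmk comparison, run on 2042 genes, it recovered 9 of 40 genes raised by a log2 fold of 1 and 38 of 40 raised by 2, and 5 and 19 of 40 lowered by the same folds, and called 3 of 1873 unchanged genes. For the test of age, run on 745 genes, it recovered 10 of 40 raised and 11 of 40 lowered by 1. By 2 it recovered 37 of 40 raised and 30 of 40 lowered, and it called 8 of 565 unchanged genes. The simulated counts had a fixed dispersion, the same gene proportions in every library and changed genes above a minimum level only. They were not matched to the spread of these libraries, so the numbers may not hold for the real tests. The libraries used as replicates differ in tissue or age. With the library as a block, p-values rest on how far the paired difference varied over libraries and on a spread estimated over many genes. Other tools were Python 3.11.15, R 4.3.3 and limma 3.58.1.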

Additional observations from a re-analysis of the deposited data

Results flagged for a closer look

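Regulatory T cells are outside the rule, and 4 of 258 Foxp3-positive T cells had UMIs of at least 2 of the 5 genes, which is above the 3 cells taken as the limit of a count of 0. Their share, 1.55% (0.424 to 3.92), stood beside 1.56% in Foxp3-negative T cells. They came from the aged meninges (3 of 141) and the aged choroid plexus (1 of 72), and 1 of them had a UMI of a natural killer cell gene. Among the Foxp3-positive T cells of the young libraries 0 of 33 and 0 of 12 had 2 of the genes, with upper 95% limits of 10.6% and 26.5%. Of 51 cells that passed the filters without a Cd3 UMI, 0 had 2 of the genes.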

How the results depend on the processing

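The share of effector cells moved by more than its interval when only CD8 T cells were counted (3.08% in young meninges, 2.40% in young choroid plexus, 4.78% in aged meninges), when cells were thinned to 1000 UMIs (0.970% and 0.692% in aged meninges and choroid plexus) and when 3 of the 5 genes were asked for (0.947% and 0.682%). Against other T cells, with 79 genes higher and 257 lower, the counts were 169 and 98 with library size only, 50 and 86 with the DESeq2 Wald test, 28 and 109 with no library block, 20 and 164 with thinned cells, 27 and 171 with at least 3 of the 5 genes, and 15 and 43 without cells with macrophage, B or NK cell markers. The genes tested numbered 8417 in the main fit, 2864 with the DESeq2 Wald test and 5252 with thinned cells. Profiles of at least 3 cells were an alternative chosen after seeing the data. The numbers higher were then 42 of 7161 with at least 3 genes and 40 of 7084 without marker cells. For CD8 T cells 36 of 3929 were higher and 153 lower. A mean of at least 100 CPM, also chosen afterwards, left 110 lower of 1324 tested. Leaving out 1 library gave 25 to 59 higher and 104 to 165 lower. Ccl4, higher by 0.78 as fitted, went to -0.29 with at least 3 genes and to -0.063 with at least 3 genes and 3 cells per profile, but relative to the median of all genes in each fit it was 1.09, 0.17 and 0.45, so the sign changed only as fitted. Against Gzmk-positive cells, with 55 higher and 108 lower, there were 99 higher with library size only, 17 higher and 38 lower without macrophage, B or NK marker cells, and 195 lower with no filter, 59 with no library block and 61 with thinned cells. These fits tested 6313 genes without marker cells, 12898 with no filter and 467 with thinned cells, against 2152 in the main fit. Counts from fits that tested unlike numbers of genes do not show a change in the share called. Leaving out 1 library gave 30 to 46 higher and 74 to 96 lower, of 2269 to 6165 genes tested. Against Itgae- or Itga1-positive cells, with 42 higher and 27 lower, there were 65 higher with library size only. With the DESeq2 Wald test 23 of 1002 genes tested were higher. The counts were 19 and 12 with no library block, 24 and 17 with at least 3 genes, 26 and 17 without marker cells, and 18 and 8 without gamma-delta receptor UMIs. There were 131 lower of 12078 tested with no filter, where the main fit tested 2113. Chosen afterwards, 65 of 1923 were lower with all 4 libraries and 118 of 1830 with at least 3 genes and 3 cells. Leaving out 1 library gave 1 to 41 higher and 0 to 34 lower, the lowest without the aged meninges.

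For aged against young meninges the counts of 20 higher and 24 lower became 99 and 121 with at least 10 summed UMIs, 9 and 4 with thinned cells and 38 and 7 without marker cells, and 15 were lower with a pseudocount of 50 CPM and 12 among CD8 T cells. Genes with enough UMIs numbered 525, and 1222 with 10 UMIs, 176 with thinned cells, 392 without marker cells and 305 among CD8 T cells. A mean of at least 500 CPM, chosen after seeing the data, left 5 and 2 of 264, and 9 and 5 of 257 without marker cells. For the choroid plexus 24 and 2 became 73 and 17 with 10 UMIs and 5 and 1 with thinned cells, 13 and 9 with a mean of at least 500 CPM, and 12 lower with that mean and without marker cells. Genes judged in the choroid plexus numbered 258, and 534 with 10 UMIs, 102 with thinned cells, 266 with that mean and 263 without marker cells as well. The causes were not tested. Of the named genes, 791 results over all settings kept direction and side of the threshold against other T cells, 234 lost the call and 2 reversed. Against Gzmk-positive cells it was 549, 103 and 0, and against integrin-positive cells 438, 121 and 0. CD8 T cells alone could not be fitted with 10 cells per profile, since 1 library remained. The population comparisons were paired within libraries by the library block. For aged against young over both tissues, with tissue as the replicate block, 9 genes were higher and 11 lower, against 0 and 0 with no replicate block. Leaving out a library from it leaves no residual degree of freedom, so that was not run. With 7 to 24 effector cells per library, genes of low level could not be judged.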
